A study of Rattus norvegicus with 23 samples.

Results

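The 37 genes described here encode lysosomal proteins and their regulators in 2 rat kidney cell lines, NRK-52E (epithelial cells, written NRKE in the labels) and NRK-49F (fibroblasts, written NRKF). They were taken by gene symbol from the deposited count table, in which all 37 were found among 30452 genes. They comprise 13 glycosidases, 6 genes for sulfatases and an acetyltransferase, 8 lipid hydrolases and activators, 1 peptidase and 1 phosphatase, 5 membrane proteins, the 2 transcription factors Tfeb and Tfe3, and the sorting enzyme gene Gnptab. All 37 passed the filter for low counts, as did 14777 genes in all. Cells of both lines grew in monoculture. After 24 h without serum they spent 48 h in medium of pH 7.4, the control, or in medium brought to pH 6.0 with HCl. Poly(A) RNA was sequenced from n = 6 samples of NRK-52E cells at pH 7.4, n = 6 at pH 6.0, n = 6 of NRK-49F cells at pH 7.4 and n = 5 at pH 6.0. Each cell type is represented by 1 established line, so cell type and cell line cannot be told apart.

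Total counts per sample lay between 16412564 and 34250535. In the RefSeq gene table of GRCr8 the spans of Acp2, Cd63, Cln3, Galc, Glb1, Gnptab, Hexa, Idua, Psap and Sgsh overlap with another protein-coding gene. These are spans of whole genes, introns included, whereas the counting used exons. Whether such a neighbour affects the counts of these 10 genes was not tested. The labels put every sample into a sample group, 1 or 3 for NRK-52E cells and 4 or 6 for NRK-49F cells. Both pH values occur in every sample group. The paper calls its samples biological, but nothing in the labels says whether those of a condition came from separate cultures. The p-values thus measure the spread between these samples, which may be technical. Levels are given in FPM, fragments per 1000000 of the library after TMM scaling (trimmed mean of M values). Of the 10 epithelial markers that were looked up, 3 could be tested, and Cdh1 and Epcam were at or near 0 in both lines. At pH 7.4 Rab25 and Cldn6 were higher in NRK-52E than in NRK-49F cells (log2 ratios 2.82 and 2.48) but scarce there, with means of 2.15 and 0.682 FPM, while Krt8 was lower (log2 ratio -0.75), with 499 ± 76.4 against 839 ± 193 FPM (SD, n = 6 each). The defining markers thus bear the label epithelial only in part. Of 9 tested fibroblast markers, 8 were higher in NRK-49F cells, such as Pdgfra (306 FPM, against 1.83 in NRK-52E controls) and Vcam1 (272 FPM, against 1.20). The most abundant of them, Col3a1, went the other way (1212 FPM in NRK-49F against 6149 FPM in NRK-52E cells), and Pdgfrb (41.4 FPM) and Postn (65.8 FPM) were present in NRK-52E controls. Of the 8 leukocyte markers, Ptprc and Adgre1 were at 0 in every NRK-52E sample, Cd14 had a mean of 95.5 FPM in NRK-52E and 100.5 FPM in NRK-49F controls, and Csf1r and Lyz2 were low (0.872 and 1.65 FPM in NRK-52E controls) and higher there than in NRK-49F cells (log2 ratios 2.75 and 1.50).

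Lysosomes degrade glycans, lipids and proteins with hydrolases that work best at an acidic luminal pH. Most of these enzymes receive a mannose 6-phosphate tag in the Golgi apparatus, which directs them to the lysosome, while heavily glycosylated proteins such as Lamp1 and Lamp2 cover the inner face of its membrane. The transcription factors Tfeb and Tfe3 bind E-box sites in the promoters of many lysosomal genes and are themselves controlled largely by their move between cytosol and nucleus, which RNA levels do not show. In kidney epithelium, lysosomes handle the proteins and lipids taken up by endocytosis.

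At pH 6.0 the lysosomal genes of NRK-52E cells split into a set that rose and a somewhat larger set that fell. Naglu rose most, to 4.35 times its control level, and Acp2 fell most, being 4.05-fold lower. In all, 14 of the 37 genes were higher (37.8%) and 17 lower (45.9%), against 24.7% higher and 36.6% lower among all tested genes (61.2% in both directions), at an adjusted p under 0.05 by the quasi-likelihood test of edgeR with correction over every tested gene. The median log2 fold change was -0.18 for the lysosomal genes and -0.12 for all genes. In NRK-49F cells fewer genes passed the test, with 7 higher (18.9%) and 4 lower (10.8%), against a background of 14.5% and 14.4% (28.9% in both directions), and the median was 0.05 against 0.00 for all genes. Among NRK-52E controls, A021 had the highest Pdgfra (4.73 FPM) and Vcam1 (4.00 FPM), though the lowest Col3a1, and among NRK-49F controls A051 had the most counts of Naaa and Cln3, both scarce there. Both samples were left out together for this reason. Without both, the 31 calls in NRK-52E cells remained, and in NRK-49F cells 7 genes were higher and 2 lower, with Naaa and Acp2 no longer called. The cell type markers moved along with pH as well. In NRK-52E cells 7 of 9 tested fibroblast markers fell at pH 6.0, with Pdgfra at -6.08, Vcam1 at -5.23, Postn at -2.49 and Col3a1 at -1.36 (log2), and 1 rose. Pdgfra and Vcam1 were scarce in these cells, with control medians of 1.26 and 0.611 FPM. At pH 6.0 they had 0 to 2 and 0 to 3 counts per sample. The sum of the list went from 4811 to 8142 FPM at pH 7.4 to between 1814 and 3102 FPM. Most of that sum in NRK-52E cells was Col3a1, with means of 6149 and 2402 FPM. Krt8 and Rab25 fell there by 1.17 and 1.70 and Cldn6 rose by 2.18 (log2), while Csf1r and Lyz2 rose by 1.28 and 1.27 (log2, adjusted p = 0.00684 and 0.000123). The leukocyte list had a sum of 84.5 to 108 FPM in the controls and of 63.8 to 172 FPM at pH 6.0. Most of it was Cd14, with means of 95.5 and 110 FPM. Of the 9 fibroblast markers, 2 fell in NRK-49F cells, and their sum went from 2137 to 2533 FPM to between 1211 and 1765 FPM. Krt8 and Rab25 fell there too, while Cd14, Csf1r and Lyz2 had log2 fold changes of -0.30, 0.08 and 0.63 (adjusted p = 0.308, 0.951 and 0.133). The part of these shifts in the changes of the lysosomal genes was not tested. In bulk RNA, a change in the number of cells of a kind and a change of RNA per cell cannot be told apart.

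**Figure D1:**
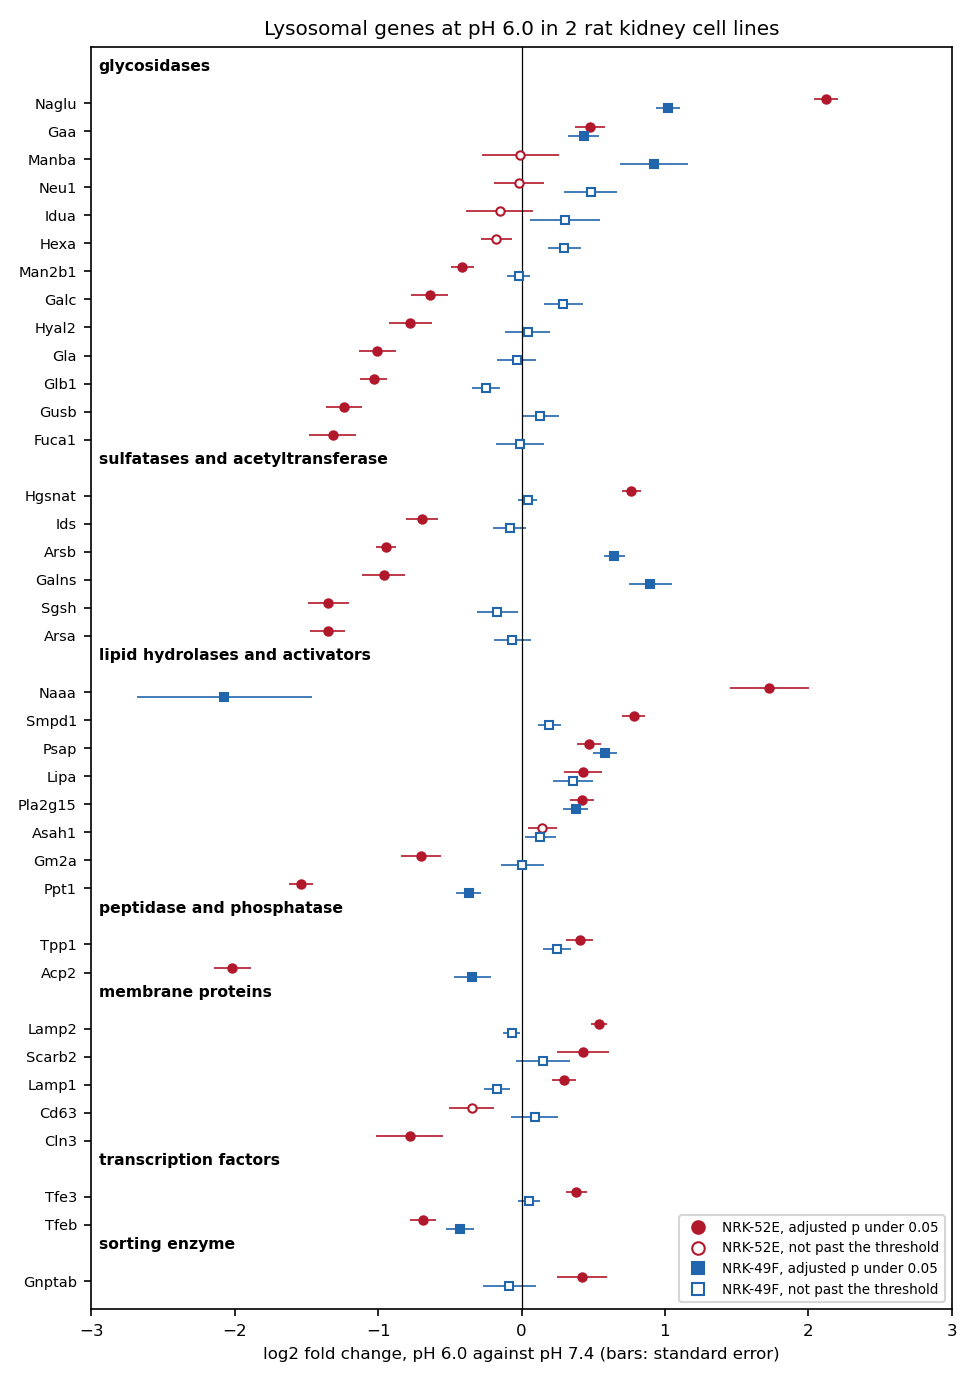
Log2 fold change (x axis, pH 6.0 against pH 7.4) of the 37 lysosomal genes, grouped by role, in NRK-52E (red circles) and NRK-49F cells (blue squares). Bars are standard errors and filled symbols passed adjusted p under 0.05. Red symbols spread from -2.02 (Acp2) to 2.12 (Naglu), whereas most blue symbols lie near 0 and open. The NRK-49F value of Cln3, with 0 to 10 counts per sample, is not drawn.

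Tfeb and Tfe3, which act on overlapping sets of lysosomal genes, moved apart in NRK-52E cells. Tfeb (ENSRNOG00000014666, chromosome 9) lay between 57.7 and 74.5 FPM at pH 7.4 (median 60.8) and between 31.8 and 47.2 FPM at pH 6.0 (median 37.5). The groups did not overlap, the fall was 0.69 ± 0.09 (log2, SE; adjusted p = 6.91e-07), and the highest control value, that of A035, stood apart from the other 5. In NRK-49F cells, Tfeb was between 24.6 and 31.4 FPM at pH 7.4 (median 28.7), and the pH 6.0 samples had 21.7, 20.5, 19.2, 22.95 and 22.2 FPM. Every pH 6.0 sample was below every control there, and the log2 fold change was -0.43 ± 0.10 (SE, adjusted p = 0.0017). Within sample group 4 the value of -0.47 passed edgeR's test (adjusted p = 0.0142). Within sample group 6 that of -0.40 did not (adjusted p = 0.0508). The log2 changes of Tfeb in both lines differed by -0.26 ± 0.13 (SE), which did not pass the test (adjusted p = 0.127).

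Tfe3 (ENSRNOG00000009605, chromosome X) was between 44.0 and 54.2 FPM in NRK-52E cells at pH 7.4 (median 49.2) and between 57.5 and 71.1 FPM at pH 6.0 (median 64.2). All pH 6.0 samples exceeded all controls, with a log2 fold change of 0.38 ± 0.07 (SE, adjusted p = 7.92e-05). Within sample group 1 the value of 0.24 did not pass edgeR's test (adjusted p = 0.0552), and within sample group 3 it was 0.52 (adjusted p = 0.000416). In NRK-49F cells the controls had 45.3 to 53.4 FPM (median 48.6) and the pH 6.0 samples 45.9, 54.3, 50.7, 49.6 and 54.2 FPM. These groups overlapped, and the value of 0.05 ± 0.08 (log2, SE) did not pass the test. The change of Tfe3 was larger in NRK-52E than in NRK-49F cells by 0.33 ± 0.11 (log2, SE, adjusted p = 0.0144).

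Promoters were searched for the E-box CACGTG, for its longer form GTCACGTG and for the 10-letter form GTCACGTGAC, which are the letters at the core of the sites that Tfeb and Tfe3 bind. Both strands of the window from 250 bases before to 50 bases after the start were read, and each longer form contains the shorter one. RefSeq sequences of the build GRCr8 were matched for 30 of the 37 genes, while Arsb, Hgsnat, Asah1, Psap, Ppt1, Arsa and Hexa had no entry. The E-box was present in 8 of the 30 (26.7%), namely Cd63, Cln3, Gaa, Galc, Glb1, Idua, Lamp1 and Sgsh, against 6.42% of 33469 promoters in the table. GTCACGTG was present in 7 (23.3%, against 1.85%) and GTCACGTGAC in 1, Galc (3.33%, against 0.233%). These comparison shares cover every promoter in the table and are not limited to the tested genes. Of the genes with a promoter entry, those with the E-box were 2 of 12 higher, 4 of 14 lower and 2 of 4 not called in NRK-52E cells at pH 6.0. Presence of the letters thus went along with no single direction. The sequences of the 6 E-box genes that were called in NRK-52E cells are given with their E-boxes in capitals, 5′ to 3′ on the strand of the gene. Lamp1 follows the rule for genes shown by sample, and the other 5 were added after their values were seen. Lamp1 (chr16:83075064-83075313, minus strand) is shown with the 250 bases before its start, which hold 5 E-boxes, and Gaa (chr10:105028263-105028318, plus strand) is the other gene that rose. Galc (chr6:123245560-123245604, minus strand), Glb1 (chr8:122963593-122963648, plus strand), Sgsh (chr10:105112016-105112071, minus strand) and Cln3 (chr1:190597937-190598020, minus strand) fell.
Lamp1: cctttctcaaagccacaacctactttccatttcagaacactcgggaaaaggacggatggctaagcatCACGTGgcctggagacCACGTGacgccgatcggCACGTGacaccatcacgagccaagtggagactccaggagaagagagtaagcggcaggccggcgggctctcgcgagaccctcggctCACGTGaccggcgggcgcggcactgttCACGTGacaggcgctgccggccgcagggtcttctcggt
Gaa: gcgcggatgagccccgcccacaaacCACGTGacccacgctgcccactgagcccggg
Galc: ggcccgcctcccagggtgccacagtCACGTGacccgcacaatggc
Glb1: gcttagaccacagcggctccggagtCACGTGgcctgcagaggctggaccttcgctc
Sgsh: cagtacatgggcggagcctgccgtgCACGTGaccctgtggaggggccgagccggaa
Cln3: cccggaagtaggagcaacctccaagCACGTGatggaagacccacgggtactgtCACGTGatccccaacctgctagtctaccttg

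The 13 glycosidases, which cleave sugars from glycans and glycolipids, mostly fell in NRK-52E cells. Of these, 2 rose (15.4%, against 24.7% of all tested genes), 7 fell (53.8%, against 36.6%) and 4 did not pass the test. The median log2 fold change was -0.41. In NRK-49F cells, 3 rose (23.1%, against 14.5% of all tested genes), 0 fell (against 14.4%) and 10 did not pass the test. The median there was 0.29, and 1 glycosidase, Glb1, was lower at an unadjusted p under 0.05 (log2 fold change -0.25 ± 0.10, SE, adjusted p = 0.0589). DESeq2 called that fall of Glb1 too.

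Naglu (ENSRNOG00000032381, chromosome 10), the α-N-acetylglucosaminidase of heparan sulfate degradation, was between 72.8 and 87.0 FPM in NRK-52E controls (median 81.0) and between 302 and 389 FPM at pH 6.0 (median 362). The lowest pH 6.0 sample was thus far above the highest control, and the log2 fold change was 2.12 ± 0.08 (SE, adjusted p = 2.87e-15). In NRK-49F cells Naglu was between 140 and 167 FPM at pH 7.4 (median 150.03) and 366, 269, 297, 307 and 290 FPM in the pH 6.0 samples. All 5 exceeded every control, by 1.02 ± 0.08 on the log2 scale (SE, adjusted p = 2.69e-09). The rise was larger in NRK-52E than in NRK-49F cells, by 1.10 ± 0.12 (log2, SE, adjusted p = 9.89e-08). Means at pH 7.4 were 80.0 ± 5.28 FPM in NRK-52E and 151 ± 10.6 FPM in NRK-49F cells (SD, n = 6 each), and at pH 6.0 they were 348 ± 35.7 (SD, n = 6) and 306 ± 36.5 FPM (SD, n = 5).

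Manba (ENSRNOG00000052247, chromosome 2), the β-mannosidase that completes the degradation of N-glycans, was scarce in NRK-52E cells, with 1.92 to 4.70 FPM at pH 7.4 (median 3.74) and 1.53 to 5.88 FPM at pH 6.0 (median 3.51). These groups overlapped, and the log2 fold change was -0.01 ± 0.27 (SE). In NRK-49F cells it was between 45.4 and 54.3 FPM at pH 7.4 (median 49.4) and reached 80.2, 100.4, 97.0, 89.2 and 107 FPM at pH 6.0. Every pH 6.0 sample was above the controls, with a log2 fold change of 0.92 ± 0.24 (SE, adjusted p = 0.00478). The difference between the lines passed the test narrowly (-0.93 ± 0.36, log2, SE, adjusted p = 0.0408), and this call was lost on omission of any of A021, A022, A023, A036, A037, A038, A039, A041, A043, A051, A052, A054, A055 or A056.

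Gaa, the acid α-glucosidase that breaks down glycogen, rose by 0.48 ± 0.10 in NRK-52E and by 0.43 ± 0.11 in NRK-49F cells (log2, SE, adjusted p = 0.000348 and 0.00393), and the difference of 0.05 ± 0.15 (log2, SE) did not pass the test. The NRK-52E value pools 0.73 in sample group 1 with 0.17 in sample group 3, which was not called, and these differed (adjusted p = 0.00442 in a model chosen after the data were seen). The glycosidases that fell in NRK-52E cells were Fuca1 (α-fucosidase, -1.32), Gusb (β-glucuronidase, -1.24), Glb1 (β-galactosidase, -1.03), Gla (α-galactosidase A, -1.01), Hyal2 (a hyaluronidase, -0.77), Galc (galactosylceramidase, -0.64) and Man2b1 (α-mannosidase, -0.41), all as log2 fold changes. For each of these 7 the pH values did not overlap, and for each the change was lower in NRK-52E than in NRK-49F cells in the test of the difference (adjusted p from 1.86e-06 for Gusb to 0.00705 for Man2b1). Gusb, for example, had a mean of 141 ± 14.1 FPM at pH 7.4 and 59.97 ± 14.7 FPM at pH 6.0 for NRK-52E (SD, n = 6 each), and 100.3 ± 9.62 (SD, n = 6) and 110 ± 13.1 FPM (SD, n = 5) in NRK-49F cells. With sample groups 1 and 4 alone, the differences of Glb1, Galc, Man2b1 and Hyal2 between the lines were no longer called. Hexa, the α-subunit of β-hexosaminidase, Idua, the α-iduronidase, and Neu1, the lysosomal sialidase, did not pass edgeR's test in either line. DESeq2 called Hexa and Neu1 higher at pH 6.0 in NRK-49F cells.

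In NRK-52E cells 5 of the 6 genes for sulfatases and the acetyltransferase fell, against 36.6% of all tested genes. Of the 6, 1 rose (against 24.7%), and the median log2 fold change was -0.95. In NRK-49F cells, 2 rose (against 14.5% of all tested genes) and 4 did not pass the test (median -0.01). None of the 6 was lower at an unadjusted p under 0.05 there, and DESeq2 called none of them lower either. All 6 differed between the lines in their response (against 41.4% of all tested genes). Of these, 5 had the lower change in NRK-52E cells (against 24.7%).

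Galns (ENSRNOG00000014461, chromosome 19), a sulfatase of keratan sulfate and chondroitin sulfate, went in opposite directions. In NRK-52E cells it was between 9.09 and 11.9 FPM at pH 7.4 (median 10.3) and between 3.59 and 7.54 FPM at pH 6.0 (median 4.96), so that all pH 6.0 samples were below the controls (log2 fold change -0.96 ± 0.15, SE, adjusted p = 6.42e-06). In NRK-49F cells it was between 12.5 and 16.5 FPM at pH 7.4 (median 13.2), and the pH 6.0 samples had 26.9, 30.6, 23.5, 23.1 and 24.3 FPM. These all lay above the controls, with a log2 fold change of 0.90 ± 0.15 (SE, adjusted p = 6.06e-05). The responses differed by -1.86 ± 0.21 (log2, SE, adjusted p = 2.42e-07).

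Arsb (ENSRNOG00000011150, chromosome 2), a sulfatase of dermatan sulfate, behaved likewise. It was between 90.8 and 110 FPM in NRK-52E controls (median 104) and between 48.5 and 57.7 FPM at pH 6.0 (median 53.1), without overlap (log2 fold change -0.94 ± 0.07, SE, adjusted p = 4.32e-11). NRK-49F controls had 92.6 to 106 FPM (median 96.4) and the pH 6.0 samples 132, 157, 154, 164 and 160 FPM. All of these exceeded the controls, by 0.65 ± 0.07 (log2, SE, adjusted p = 2.38e-07). At pH 7.4 the level of Arsb did not differ between the lines by the test (log2 ratio 0.07 ± 0.07, SE, adjusted p = 0.401), while the responses differed by -1.59 ± 0.10 (log2, SE, adjusted p = 2.63e-11). A fall in NRK-52E together with a rise in NRK-49F cells was called for 2 of the 37 genes, Galns and Arsb, and for 2.94% of all tested genes.

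Arsa (ENSRNOG00000012953, chromosome 7), the sulfatase of the myelin lipid sulfatide, was between 273 and 363 FPM in NRK-52E cells at pH 7.4 (median 327) and between 92.5 and 160 FPM at pH 6.0 (median 129). The highest pH 6.0 sample was well under the lowest control, and the fold change was -1.35 ± 0.12 (log2, SE, adjusted p = 2.04e-09). In NRK-49F cells Arsa was between 169 and 190 FPM at pH 7.4 (median 182) and 161, 192, 168, 172 and 176 FPM at pH 6.0. These groups overlapped, and the log2 fold change of -0.06 ± 0.13 (SE) did not pass the test.

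Sgsh and Ids, both sulfatases of heparan sulfate, fell in NRK-52E cells (log2 fold changes -1.35 ± 0.14 and -0.69 ± 0.11, SE, adjusted p = 2.56e-08 and 1.02e-05). Hgsnat, the membrane enzyme that acetylates heparan sulfate in the lysosome, was the exception. In NRK-52E cells its mean rose from 122 ± 7.86 FPM to 208 ± 14.8 FPM at pH 6.0 (SD, n = 6 each), or by 0.77 ± 0.06 on the log2 scale (SE, adjusted p = 3.79e-10). In NRK-49F cells Hgsnat had 43.6 ± 2.49 (SD, n = 6) and 44.9 ± 2.72 FPM (SD, n = 5).

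**Figure D2:**
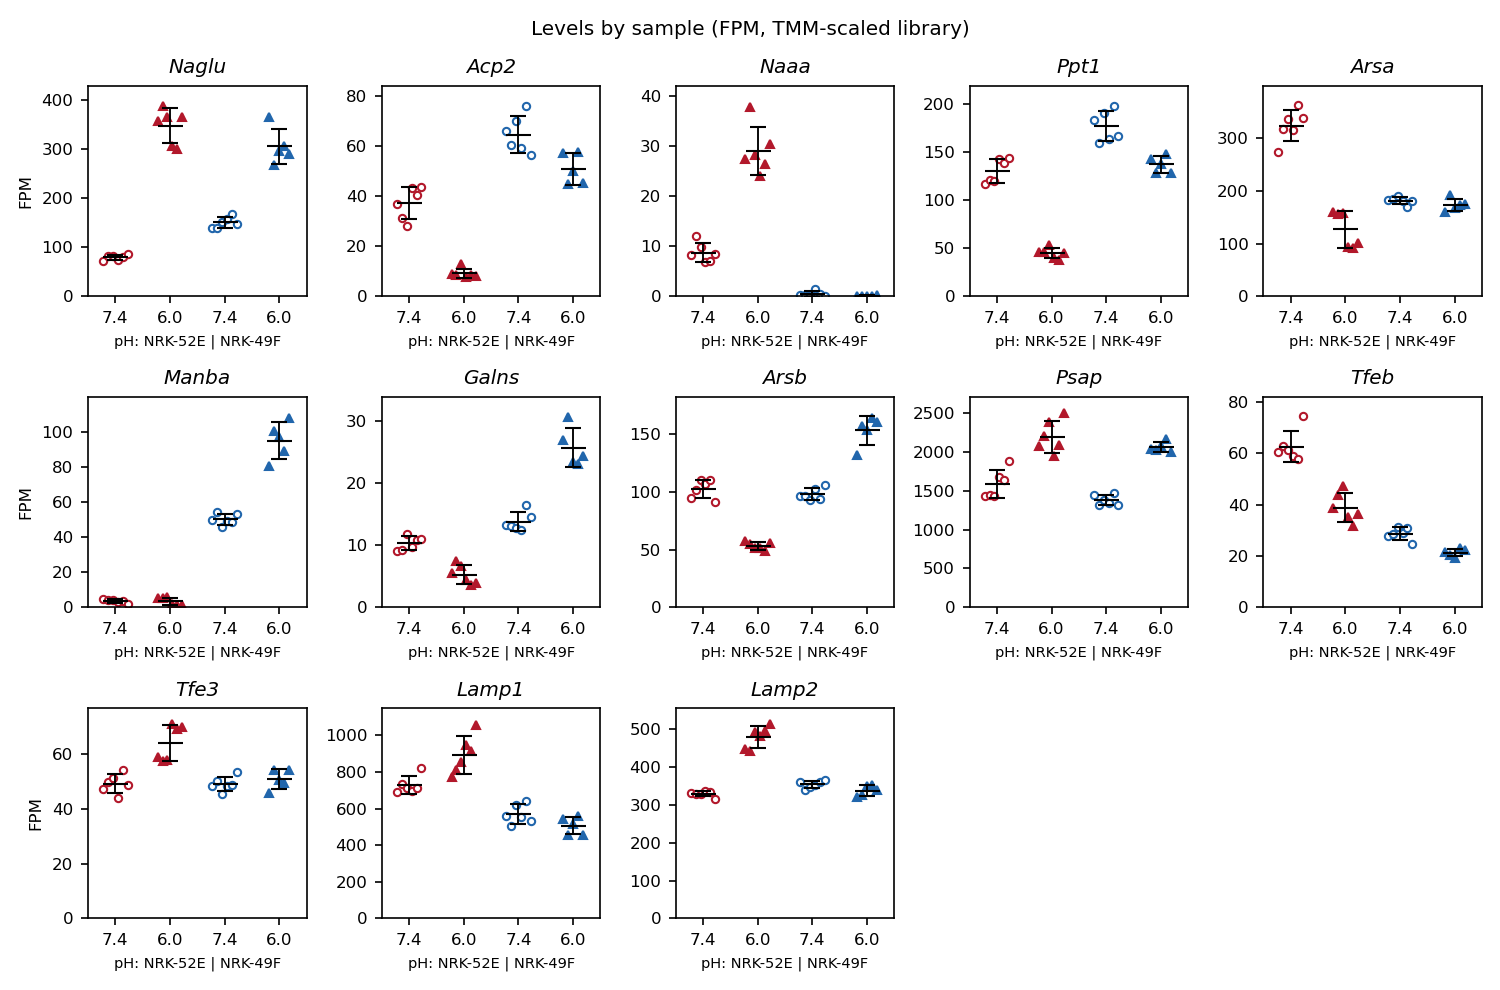
FPM (y axis) of the 13 genes shown by sample, at pH 7.4 (open circles) and pH 6.0 (triangles) in NRK-52E (red) and NRK-49F cells (blue), with the mean and SD in black. Galns and Arsb are lower at pH 6.0 in red and higher in blue without overlap, Naglu is higher in both, and Ppt1 is lower in both. Scales differ between panels and start at 0.

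The 8 lipid hydrolases and their activators rose more often than they fell in NRK-52E cells. There 5 were higher (against 24.7% of all tested genes) and 2 lower (against 36.6%), with a median log2 fold change of 0.42. In NRK-49F cells 2 rose (against 14.5% of all tested genes), 2 fell (against 14.4%) and 4 did not pass the test (median 0.16).

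Naaa (ENSRNOG00000002273, chromosome 14), an amidase of fatty acid ethanolamides, was between 6.87 and 11.9 FPM in NRK-52E cells at pH 7.4 (median 8.36) and between 24.1 and 37.7 FPM at pH 6.0 (median 27.7). The pH values did not overlap, and the log2 fold change was 1.73 ± 0.28 (SE, adjusted p = 8.58e-06). In NRK-49F cells Naaa was close to the detection limit of 3 counts, which corresponds to 0.0999 to 0.203 FPM in these libraries and covers counting error only. The controls had 3 to 41 counts per sample, and the pH 6.0 samples had 2, 2, 4, 0 and 5 counts. The sample with 41 counts was A051, and the groups overlapped. The edgeR test gave a lower level at pH 6.0 (log2 fold change -2.07 ± 0.61, SE, adjusted p = 0.0124), which was no longer called without A051 (adjusted p = 0.0567, with a range of 0.0072 to 0.0567 over the omissions of single samples), and the exact permutation test on FPM did not pass (adjusted p = 0.093).

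Psap (ENSRNOG00000000571, chromosome 20) encodes prosaposin, the precursor of the saposins that help enzymes to reach sphingolipids. It was between 1425 and 1879 FPM in NRK-52E cells at pH 7.4 (median 1545) and between 1947 and 2491 FPM at pH 6.0 (median 2139), with a log2 fold change of 0.47 ± 0.08 (SE, adjusted p = 2.93e-05). In NRK-49F cells it was between 1313 and 1465 FPM at pH 7.4 (median 1360) and 2037, 2027, 2077, 2157 and 1999 FPM at pH 6.0. The pH values did not overlap in either line. The rise in NRK-49F cells was 0.58 ± 0.09 (log2, SE, adjusted p = 1.45e-05), and the difference between the lines did not pass the test (adjusted p = 0.487).

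Ppt1 (ENSRNOG00000012616, chromosome 5), the thioesterase that removes palmitate from proteins, was between 117 and 143 FPM in NRK-52E cells at pH 7.4 (median 129) and between 38.01 and 53.2 FPM at pH 6.0 (median 45.7). It was 2.90-fold lower, with no overlap (log2 fold change -1.54 ± 0.09, SE, adjusted p = 5.06e-13). In NRK-49F cells the controls had 159 to 198 FPM (median 174.6) and the pH 6.0 samples 142, 128, 138, 148 and 128 FPM. All 5 lay below the controls, with a smaller log2 fold change of -0.37 ± 0.09 (SE, adjusted p = 0.00248), and the difference between the lines was -1.17 ± 0.12 (log2, SE, adjusted p = 5.96e-08).

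Smpd1, the acid sphingomyelinase, had 395 ± 44.5 FPM in NRK-52E controls and 679 ± 54.3 FPM at pH 6.0 (SD, n = 6 each, log2 fold change 0.78 ± 0.08, SE, adjusted p = 1.13e-08). In NRK-49F cells it had 246 ± 10.5 (SD, n = 6) and 281 ± 28.9 FPM (SD, n = 5), which did not pass the test (adjusted p = 0.083). Lipa, the acid lipase for cholesteryl esters, and Pla2g15, a phospholipase, rose in NRK-52E cells by 0.43 ± 0.13 and 0.42 ± 0.08 (log2, SE). Pla2g15 rose in NRK-49F cells too, by 0.38 ± 0.09 (log2, SE, adjusted p = 0.0017), whereas Lipa missed the threshold there (0.36 ± 0.14, log2, SE, adjusted p = 0.0545) although its groups did not overlap. DESeq2 called that rise of Lipa (adjusted p = 0.0478), as did edgeR with the sample group as a block (adjusted p = 0.00126) and with the line fitted alone (adjusted p = 0.000431). Gm2a, the activator for GM2 ganglioside, fell in NRK-52E cells by 0.70 ± 0.14 (log2, SE, adjusted p = 0.000152) and had a log2 fold change of 0.01 ± 0.15 (SE) in NRK-49F cells. Asah1, the acid ceramidase, did not pass the test in either line.

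Acp2 (ENSRNOG00000013594, chromosome 3), the lysosomal acid phosphatase, was between 28.0 and 43.4 FPM in NRK-52E cells at pH 7.4 (median 38.7) and between 7.65 and 12.8 FPM at pH 6.0 (median 8.56). The highest pH 6.0 sample, A026, was still below every control, and the log2 fold change was -2.02 ± 0.13 (SE, adjusted p = 6.26e-12). In NRK-49F cells the controls had 56.5 to 75.7 FPM (median 63.0) and the pH 6.0 samples 57.1, 44.6, 49.9, 57.5 and 45.0 FPM. These groups overlapped, and the log2 fold change of -0.34 ± 0.13 (SE) was just past the threshold (adjusted p = 0.0475), a call that was lost in 12 of 23 omissions of a single sample (adjusted p from 0.0224 to 0.111). It was also lost with the sample group as a block (adjusted p = 0.0501), without the filter on low counts and within either pair of sample groups, while DESeq2 called it (adjusted p = 0.0257). The fall was larger in NRK-52E cells, with a difference of -1.67 ± 0.18 (log2, SE, adjusted p = 1.24e-07). Tpp1, a tripeptidyl peptidase, rose in NRK-52E cells by 0.41 ± 0.09 (log2, SE, adjusted p = 0.00061) and had 0.25 ± 0.10 (log2, SE, adjusted p = 0.0581) in NRK-49F cells.

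Of the 5 membrane proteins, 3 were higher at pH 6.0 in NRK-52E cells (against 24.7% of all tested genes), Cln3 was lower and Cd63 was not called. One of these calls, that of Scarb2, was lost in 8 of 23 omissions of a single sample. In NRK-49F cells 0 of the 5 passed edgeR's test in either direction (against 28.9% of all tested genes). Only Cln3, with 0 to 10 counts per sample, had an unadjusted p under 0.05 there, and DESeq2 called 0 of the 5.

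Lamp1 (ENSRNOG00000019629, chromosome 16) was between 688 and 820 FPM in NRK-52E cells at pH 7.4 (median 712) and between 770 and 1054 FPM at pH 6.0 (median 885). The highest control, A035, overlapped with the pH 6.0 samples, and the log2 fold change was 0.30 ± 0.09 (SE, adjusted p = 0.00447). Within sample group 1 the value of 0.20 did not pass edgeR's test (adjusted p = 0.169), and within sample group 3 it was 0.39 (adjusted p = 0.0132). NRK-49F controls had 506 to 644 FPM (median 556) and the pH 6.0 samples 543, 457, 516, 558 and 458 FPM. These overlapped too, and -0.17 ± 0.09 (log2, SE) did not pass the test (adjusted p = 0.166). The responses differed by 0.46 ± 0.12 (log2, SE, adjusted p = 0.00417). Its promoter is the one printed with 5 E-boxes.

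Lamp2 (ENSRNOG00000000164, chromosome X) was between 317 and 338 FPM in NRK-52E cells at pH 7.4 (median 330.2) and between 444 and 515 FPM at pH 6.0 (median 488). Its groups were tight and did not overlap (log2 fold change 0.54 ± 0.06, SE, adjusted p = 1.31e-08). NRK-49F controls had 339 to 366 FPM (median 357) and the pH 6.0 samples 320.4, 325, 351, 353 and 340.0 FPM, with a log2 fold change of -0.07 ± 0.06 (SE, adjusted p = 0.408). The responses differed by 0.61 ± 0.08 (log2, SE, adjusted p = 2.07e-06).

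Scarb2, the receptor that carries glucocerebrosidase to lysosomes, rose in NRK-52E cells by 0.43 ± 0.18 (log2, SE, adjusted p = 0.0426), with overlapping groups. Cln3, a membrane protein of uncertain function that is mutated in a childhood neurodegenerative disease, had 11.8 ± 1.55 FPM in NRK-52E controls and 6.85 ± 1.26 FPM at pH 6.0 (SD, n = 6 each, log2 fold change -0.78 ± 0.24, SE, adjusted p = 0.00613). In NRK-49F cells Cln3 had 0 to 10 counts at pH 7.4 and 0 to 2 at pH 6.0, too few for a comparison. Cd63, a tetraspanin of late endosomes, had a log2 fold change of -0.35 ± 0.16 (SE, adjusted p = 0.0596) in NRK-52E cells. Gnptab, which encodes subunits of the enzyme that attaches the mannose 6-phosphate tag, rose in NRK-52E cells by 0.42 ± 0.18 (log2, SE, adjusted p = 0.0405), with overlapping groups. The call of Gnptab was lost on omission of any of A022, A024, A025, A026, A033, A034 or A035, and that of Scarb2 on omission of any of A022, A023, A033, A034, A035, A036, A037 or A038.

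On the FPM scale, the 13 genes of the plot by sample were also tested by permuting the samples exactly (two-sided, 26 tests adjusted together). Of these, 9 were picked for the size or direction of their change in the same samples, so that the permutation of those restates the choice and is not given as support. The other 4 were named with earlier results of these data known, so their tests restate the levels above and are no separate support. In NRK-52E cells Tfeb, Tfe3 and Lamp2 gave an exact p of 0.002165, the smallest that these permutations can give. Groups of 6 samples without overlap always give this value. The adjusted p of 0.00331 rests on all 26 tests, those of the 9 picked genes included, and Lamp1 had an adjusted p of 0.00889. In NRK-49F cells Tfeb had an adjusted p of 0.00625, and Tfe3, Lamp1 and Lamp2 did not pass. Over all 37 genes, 7 were higher and 17 lower without overlap in NRK-52E cells (15.4% and 23.2% of all tested genes), while in NRK-49F cells 9 were higher and 2 lower (10.4% and 10.2%).

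When the difference between the responses of both lines was tested, the change in NRK-52E cells was above that in NRK-49F cells for 7 genes (18.9%, against 16.8% of all tested genes) and below it for 17 (45.9%, against 24.7%). In sample groups 1 and 4 alone 5 of the 7 and 9 of the 17 remained, with Lamp1 and Tfe3 lost from the former, whereas in groups 3 and 6 alone all 24 remained. Those lost from the 17 in groups 1 and 4 were Hexa, Glb1, Galc, Man2b1, Manba, Hyal2, Ids and Gm2a. The background in both directions was 41.4%. The 7 were Naaa, Naglu, Hgsnat, Lamp2, Smpd1, Lamp1 and Tfe3. The 17 included 9 of the 13 glycosidases and 5 of the 6 genes for sulfatases and the acetyltransferase. By calls alone, Gaa, Naglu, Pla2g15 and Psap rose in both lines (4 of 37, against 6.94% of all tested genes), and Acp2, Ppt1 and Tfeb fell in both (3 of 37, against 9.39%) although the call of Acp2 in NRK-49F cells depended on the samples and settings. Naaa alone was called higher in NRK-52E and lower in NRK-49F cells (1.25% of all tested genes), with the reservation on its counts. Manba rose in NRK-49F cells and was not called in NRK-52E cells (4.62% of all tested genes), and the opposite case of a fall in NRK-49F cells alone was found for 0 genes by edgeR (3.76%). Asah1, Cd63, Hexa, Idua and Neu1 were called in neither line by edgeR (30.4% of all tested genes), while DESeq2, and edgeR with the sample group as a block, called Hexa and Neu1 higher in NRK-49F cells.

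The lines also differed before any change of pH. At pH 7.4, 12 lysosomal genes were higher in NRK-52E than in NRK-49F cells (32.4%, against 35% of all tested genes) and 17 lower (45.9%, against 33.9%), with 68.8% of all tested genes called in both directions together. Over all 37 genes, called or not, 11 were higher and 14 lower without overlap (25.2% and 25.5% of all tested genes). The largest ratios were those of Cln3, with 11.8 ± 1.55 against 0.115 ± 0.139 FPM (SD, n = 6 each), and of Naaa, with 8.74 ± 1.93 against 0.498 ± 0.533 FPM, for which the low NRK-49F level lay near the detection limit. Gm2a followed, with 1340 ± 132 against 287 ± 14.1 FPM (SD, n = 6 each, log2 ratio 2.22 ± 0.15, SE, adjusted p = 1.72e-12), then Hgsnat (1.49 ± 0.06) and Galc (1.20 ± 0.13). Tfeb was 2.18 times as high in NRK-52E as in NRK-49F cells (log2 ratio 1.12 ± 0.09, SE, adjusted p = 9.81e-11), whereas Tfe3 had a log2 ratio of 0.00 ± 0.07 (SE). In the other direction, Manba was 13.8-fold lower in NRK-52E cells (log2 ratio -3.79 ± 0.26, SE, adjusted p = 4.64e-12), followed by Sgsh (-1.34 ± 0.14), Lipa (-1.22 ± 0.13) and Ids (-1.12 ± 0.11). Each line belongs to sample groups of its own, so that line and sample group cannot be told apart in this comparison.

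**Figure D3:**
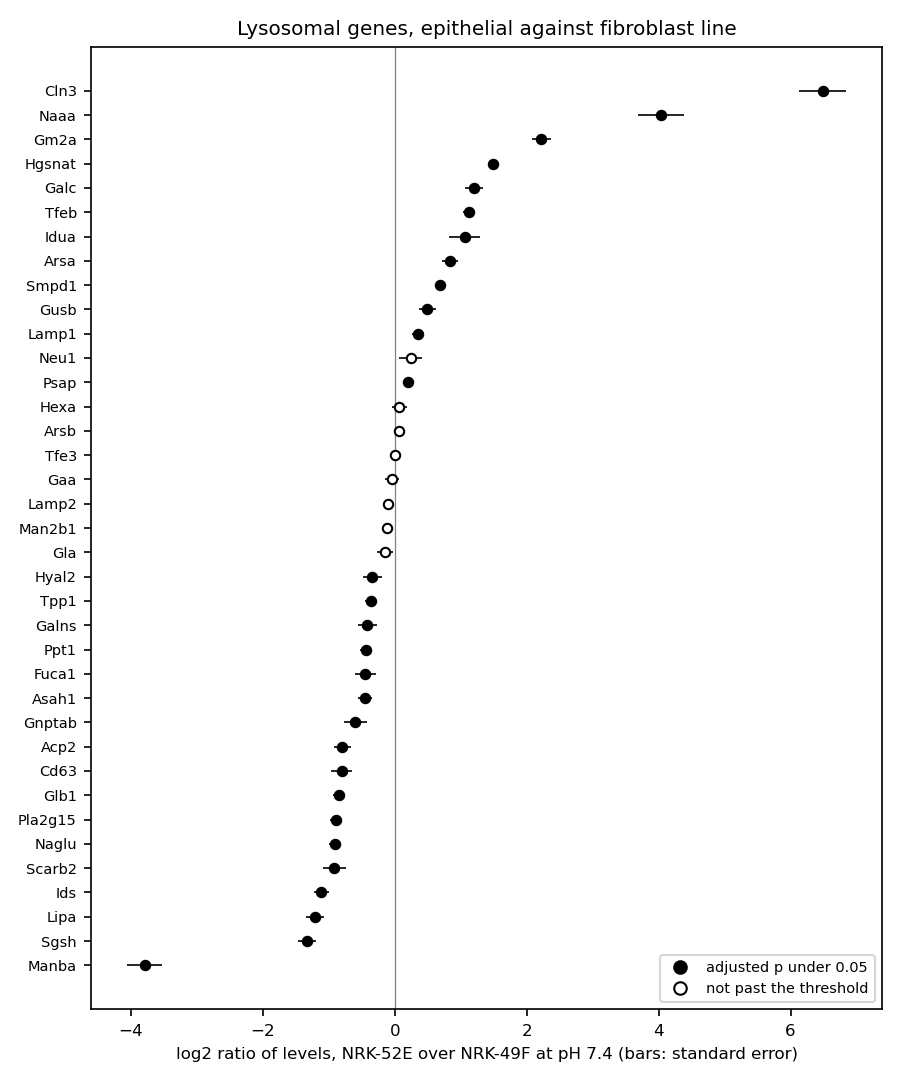
Log2 ratio of the level in NRK-52E over that in NRK-49F cells at pH 7.4 (x axis) for the 37 lysosomal genes, ordered by ratio, with standard errors as bars and filled symbols for adjusted p under 0.05. Cln3 (6.49) and Naaa (4.04) lie far to the right and Manba (-3.79) far to the left of the others.

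The response was also read within the sample groups. The calls were made on the same samples pooled, so a shared sign within the groups largely follows from that choice. It is not given as separate support. In NRK-52E cells, all 31 called genes had the same sign in sample groups 1 and 3, and 23 passed the test in both. Galc, Man2b1, Scarb2, Lamp1, Tfe3 and Gnptab did not pass in group 1, and Gaa and Lipa did not pass in group 3. In NRK-49F cells, all 11 called genes had the same sign in groups 4 and 6, and 7 passed in both. Naaa and Acp2 did not pass in group 4, and Pla2g15, Acp2 and Tfeb did not pass in group 6. The size of the response nevertheless differed between the sample groups of NRK-52E cells. In a model with a term for each line, pH and sample group, chosen after the data were seen, the change in group 3 was below that in group 1 for 15 of the 37 genes (6.87% of all tested genes) and above it for 0 by edgeR's test (3.78% of all tested genes). Of the 37 differences, 22 had an unadjusted p under 0.05, as did 3591 of the 14777 tested genes. Of the 37, 30 were negative, with a median of -0.42 against -0.01 for all tested genes. DESeq2 was not run on this model.

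These 15 genes were Glb1, Gaa, Gla, Gusb, Galc, Man2b1, Manba, Neu1, Hyal2, Arsa, Galns, Gm2a, Lipa, Ppt1 and Acp2, among them 9 of the 13 glycosidases, and no membrane protein or transcription factor. Gm2a changed by -0.28 in group 1 (adjusted p = 0.0405) and by -1.23 in group 3 (adjusted p = 3.67e-06), a difference of -0.94 ± 0.15 (log2, SE, adjusted p = 0.000484). Gusb changed by -0.82 in group 1 and by -1.71 in group 3, a difference of -0.88 ± 0.12 (log2, SE, adjusted p = 9.77e-05). Neu1, not called over all samples, was higher at pH 6.0 in group 1 (log2 fold change 0.34, adjusted p = 0.0126) and lower in group 3 (-0.56, adjusted p = 0.00172). For Neu1 the pooled value of -0.02 therefore stood between opposite changes. Gaa and Lipa rose in group 1 (0.73 and 0.64) and did not pass the test in group 3 (0.17 and 0.12, all log2). Naglu did not differ by this test (2.23 in group 1 and 2.01 in group 3, adjusted p = 0.397). In NRK-49F cells, 0 of the 37 genes and 0% of all tested genes differed between groups 6 and 4 in edgeR's test, with 2 of the 37 and 596 of all tested genes at an unadjusted p under 0.05. The sources do not say what a sample group is, and its part in these values was not tested further. Total counts at pH 6.0 were 17015842, 17205649 and 33690997 in group 1 and 17671089, 16657666 and 19830621 in group 3.

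**Figure D4:**
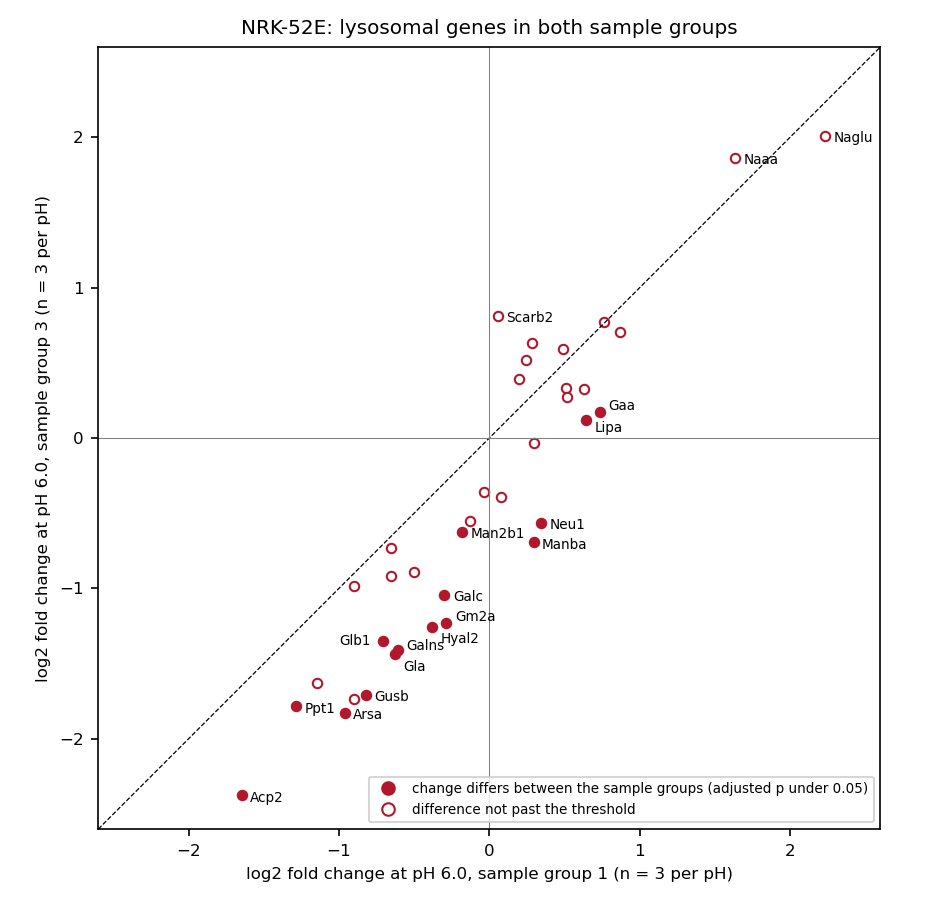
Log2 fold change (pH 6.0 against pH 7.4) of the 37 lysosomal genes in NRK-52E cells, in sample group 1 (x axis) and sample group 3 (y axis), n = 3 samples per pH in each. Filled symbols mark the 15 genes whose change differs between the sample groups at adjusted p under 0.05, and all of them lie below the dashed line of equal change.

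Single samples stood out across many of the genes. Among NRK-52E controls, A035 was the highest of the 6 samples for 16 of the 37 genes, Cd63, Fuca1, Hexa and Lamp1 among them, and the lowest for 9, among them Scarb2, Gnptab, Idua, Ids and Manba. At pH 6.0, A026 was the highest for 13 genes, and A037 the lowest for 14 and A036 for 12. Among NRK-49F controls, A052 was the highest for 15 genes and A040 the lowest for 16. At pH 6.0, A042 was the lowest of the 5 NRK-49F samples for 15 genes and the highest for 11. Without A035, 29 of the 31 calls in NRK-52E cells remained, with Scarb2 and Gnptab lost.

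Further lysosomal genes were read from 2 lists that hold none of the 37. Of 15 tested genes for other lysosomal enzymes and activators, 4 were higher (26.7%) and 8 lower (53.3%) at pH 6.0 in NRK-52E cells (median -0.24). Among all tested genes 24.7% were higher and 36.6% lower there. Of the same 15, 1 rose (6.67%, against 14.5% of all tested genes) and 5 fell (33.3%, against 14.4%) in NRK-49F cells (median -0.02). Npc2, which binds cholesterol in the lysosome, rose in NRK-52E cells by 1.04 ± 0.14, and Fuca2 fell by 1.76 ± 0.13 (log2, SE). Of 22 tested genes for sorting, membrane and the control of Tfeb, 7 rose (31.8%, against 24.7%) and 5 fell (22.7%, against 36.6%) in NRK-52E cells (median 0.08). Of the same 22, 1 rose (4.55%, against 14.5%) and 4 fell (18.2%, against 14.4%) in NRK-49F cells (median -0.03). Gnptg, the γ-subunit gene of the enzyme that Gnptab encodes in part, fell in both lines (log2 fold changes -2.73 ± 0.14 in NRK-52E and -0.98 ± 0.13 in NRK-49F cells, SE), whereas Gnptab rose in the former. Igf2r, the large mannose 6-phosphate receptor, fell in NRK-52E cells by 1.52 ± 0.28, and Mitf, a relative of Tfeb, fell by 3.04 ± 0.38 (log2, SE). Mitf was scarce there, with a mean of 1.08 FPM at pH 7.4 (8 to 59 counts per sample). At pH 6.0 its mean was 0.124 FPM (0 to 7 counts), near the detection limit. Rragd and Rragc, GTPases that tie Tfeb to the lysosomal surface, rose in NRK-52E cells by 0.91 ± 0.14 and 0.52 ± 0.07 (log2, SE).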

How the data were processed

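RNA of 23 rat cell samples was analysed, grouped by cell line and pH as the labels give them. The deposited values are raw counts per gene without normalization. The authors mapped read pairs with HISAT2 2.1.0 and used featureCounts for exon counts per Ensembl gene. Multi-mapping reads were included, so that genes with near-identical copies can share reads. The featureCounts options given in the paper name none for the strand. The build is rn7 in the paper's methods and rn6 in the submitters' processing notes, so only chromosomes are given for genes. The labels and the methods differ in the bicarbonate of the growth medium. A further 13 per-sample columns matched no sample label and were not used.

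All samples were fitted together with 4 conditions in edgeR 4.0.16 (R 4.3.3), after filterByExpr (minimum count 10, minimum total 15) and TMM scaling. The quasi-likelihood test was used, with Benjamini-Hochberg adjustment over 14777 genes and a threshold of 0.05. Standard errors are the absolute log2 fold change divided by the square root of F. FPM were compared by exact permutation tests. The steps were tested on simulated data. Promoters are those of RefSeq for GRCr8. Figures were drawn with matplotlib 3.10.9.

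The genes and lists were chosen with earlier results of these data known. Values by sample are given for the 5 largest changes past the threshold in each line with a mean of at least 5 FPM, for genes called in opposite directions, and for Tfeb, Tfe3, Lamp1 and Lamp2. Alternatives were DESeq2 1.42.0, other scalings, no filter, a threshold of 0.01, each line alone, each sample group alone or as a block, and omission of samples. The omission of A021 with A051 and the model of sample group differences were chosen after the data were seen. The values of 1 gene on the list of other lysosomal enzymes are not reported here.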

Additional observations from a re-analysis of the deposited data

Results flagged for a closer look

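The changes at pH 6.0 differed between NRK-52E and NRK-49F cells for 24 of the 37 genes in edgeR's test of the difference, which is given as the log2 change in NRK-52E minus that in NRK-49F cells. It was positive for Naaa (3.80), Naglu (1.10), Hgsnat (0.72), Lamp2 (0.61), Smpd1 (0.59), Lamp1 (0.46) and Tfe3 (0.33). The value of Naaa rests on 0 to 41 counts per NRK-49F sample. It was negative for Galns (-1.86), Acp2 (-1.67), Arsb (-1.59), Gusb (-1.37), Fuca1 (-1.31), Arsa (-1.29), Sgsh (-1.18), Ppt1 (-1.17), Gla (-0.97), Galc (-0.93), Manba (-0.93), Hyal2 (-0.82), Glb1 (-0.78), Gm2a (-0.71), Ids (-0.61), Hexa (-0.47) and Man2b1 (-0.39). The adjusted p ranged from 2.63e-11 for Arsb to 0.0408 for Manba.

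Single samples lay far from the rest of their group in 4 of 52 groups of FPM values, and about 1 in 20 groups is flagged by chance. These were Acp2 in NRK-52E cells at pH 6.0 (A026, 12.8 FPM), Naaa in NRK-49F cells at pH 7.4 (A051, 1.55 FPM), and Tfeb and Lamp1 in NRK-52E cells at pH 7.4, both in A035 (74.5 and 820 FPM).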

How the results depend on the processing

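No gene that was called changed sign under any alternative. In NRK-49F cells the count of higher genes was 11 with the sample group as a block (Hexa, Neu1, Lipa and Tpp1 added, with Acp2 lost from the lower genes) and 11 with the line fitted alone. The count of lower genes was 2 in sample groups 1 and 4 alone, 2 in groups 3 and 6 alone, 2 at a threshold of 0.01 and 2 without A021 and A051. The count of genes with the lower change in NRK-52E cells was 9 in sample groups 1 and 4 alone, where the calls of Lamp1 and Tfe3 in the other direction were lost too. The cause was not tested. On omission of single samples, the counts ranged from 12 to 14 higher and 17 to 18 lower in NRK-52E cells, and from 7 to 10 higher and 3 to 5 lower in NRK-49F cells. Those of the difference ranged from 7 to 8 and 16 to 18, and those of the lines at pH 7.4 from 11 to 12 and 15 to 18. The line fitted alone moved the median log2 fold change of all genes in NRK-52E cells from -0.12 to -0.00, and all 31 calls remained. At pH 7.4, 23 of 29 calls between the lines remained with the block, with Fuca1, Hyal2, Galns, Psap, Tpp1 and Gnptab lost. Sample groups are nested in the lines, so with the block this contrast sets sample group 1 against sample group 4. It cannot adjust the comparison of the lines for sample group. No paired analysis was possible because the replicate codes are not shared between groups. Depth limits Cln3 and Naaa in NRK-49F cells, which had few counts.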
